A study of Bos taurus with 20 samples.

Results

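The SLC25 family, the solute carriers of the mitochondrial inner membrane, was examined in the blood of pregnant cows. Members were all genes of the count files whose NCBI cattle symbol began with SLC25A and a number. There were 46 such genes among 37063, and 42 of them had at least 10 counts in at least 5 cows. Whole blood had been drawn at day 63 of gestation from 20 cows, each the recipient of 1 in vitro-produced blastocyst from an Angus oocyte and X-sorted semen and each carrying a female fetus, and 1 library was sequenced per cow. The recipient is thus not the genetic mother of the calf. The study's text describes the recipients as lactating dairy cows and its list of datasets as Angus of a range of ages. The labels give 1 condition and, for each cow, the weight of the calf at birth (BW); the age and parity of single cows were not used here. The calves weighed 45.0 ± 10.1 kg (SD, n = 20), or 43.5 ± 7.97 kg (SD, n = 19) once the heaviest, of 72.5 kg, was set aside as the study had done. Total counts were between 24632077 and 39892111 per cow.

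The inner membrane of the mitochondrion is closed to most metabolites, and SLC25 carriers move nucleotides, phosphate, coenzymes, iron, amino acids and carboxylates across it. Each carrier is built of a repeated unit of membrane helices, and most exchange one solute for another. In blood, red cell precursors use several carriers for heme synthesis, whereas white cells depend on others for energy supply and biosynthesis. SLC25A51 brings NAD, the main electron acceptor of oxidation, from the cytosol into the matrix.

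The libraries held the RNA of the usual cells of blood. Of the marker lists, 9 of 10 neutrophil genes, 10 of 10 platelet genes, 10 of 10 T cell genes, 9 of 9 B cell genes, 7 of 7 genes of natural killer and cytotoxic cells, 5 of 6 monocyte genes and 9 of 12 erythroid genes passed the count filter. Of 11 neutrophil granule genes 6 passed, and AZU1, CAMP, CATHL1, CATHL2 and CATHL4 did not. The summed neutrophil markers were between 2861 and 5244 CPM (counts scaled to a common library size, with TMM, edgeR's correction for composition), with CSF3R as the most abundant. The summed erythroid markers were between 56.1 and 1109 CPM and were highest in the cow of the 36 kg calf. Of the 6 eosinophil genes, 3 could be matched to the counts by symbol (EPX, PRG2 and PRG3 were not), and of these IL5RA passed, whereas CCR3 and ALOX15 had 0 counts in all cows. The study's methods do not describe a depletion of globin RNA, and HBB had a mean of 198 CPM. In whole blood, fewer cells of a type and less RNA per cell cannot be told apart.

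Carrier RNA was a small and steady part of the blood transcriptome. The 46 genes took 0.0975% of all counts, between 0.0949% and 0.102% per cow, and the 42 members that passed the filter summed to between 952 and 1015 CPM. The levels below are CPM that are not divided by transcript length, which was not used here, so their order is an order of reads. SLC25A36, a carrier of pyrimidine nucleotides, had the most reads, with CPM from 103 to 156 and a median of 118 over 20 cows. It took 12.5% of the reads of the family. The next were SLC25A3, the phosphate carrier needed for ATP synthesis, with 46.4 to 67.9 CPM (median 54.9), and SLC25A37, the iron importer mitoferrin 1, with 38.6 to 71.5 CPM (median 54.6). SLC25A46, an outer membrane member that acts in mitochondrial fission, and SLC25A44, which carries branched-chain amino acids, had medians of 51.7 and 50.7 CPM. The ranges of these 4 members overlapped, so their order among themselves differed by less than the spread over cows. These 5 members together held 34.2% of the reads of the family.

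Few reads came from 3 members. SLC25A21, a carrier of oxodicarboxylates, had a median of 0.280 CPM and a highest value of 0.661, SLC25A45 had a median of 0.318 CPM (highest 1.02), and SLC25A34, whose substrate is unsettled, had 0.326 CPM (highest 0.846). SLC25A34 had 0 counts in the cow of the 36 kg calf, which allows up to 0.109 CPM there (3 counts, counting error only). The 4 members that missed the filter were SLC25A2, an ornithine carrier, SLC25A31, the ADP/ATP carrier of the testis, SLC25A47 and SLC25A48. Their summed counts over the 20 cows were 39, 8, 45 and 14, and at the depth of these libraries a count of 0 allows 0.0752 to 0.122 CPM per cow.

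**Figure D1:**
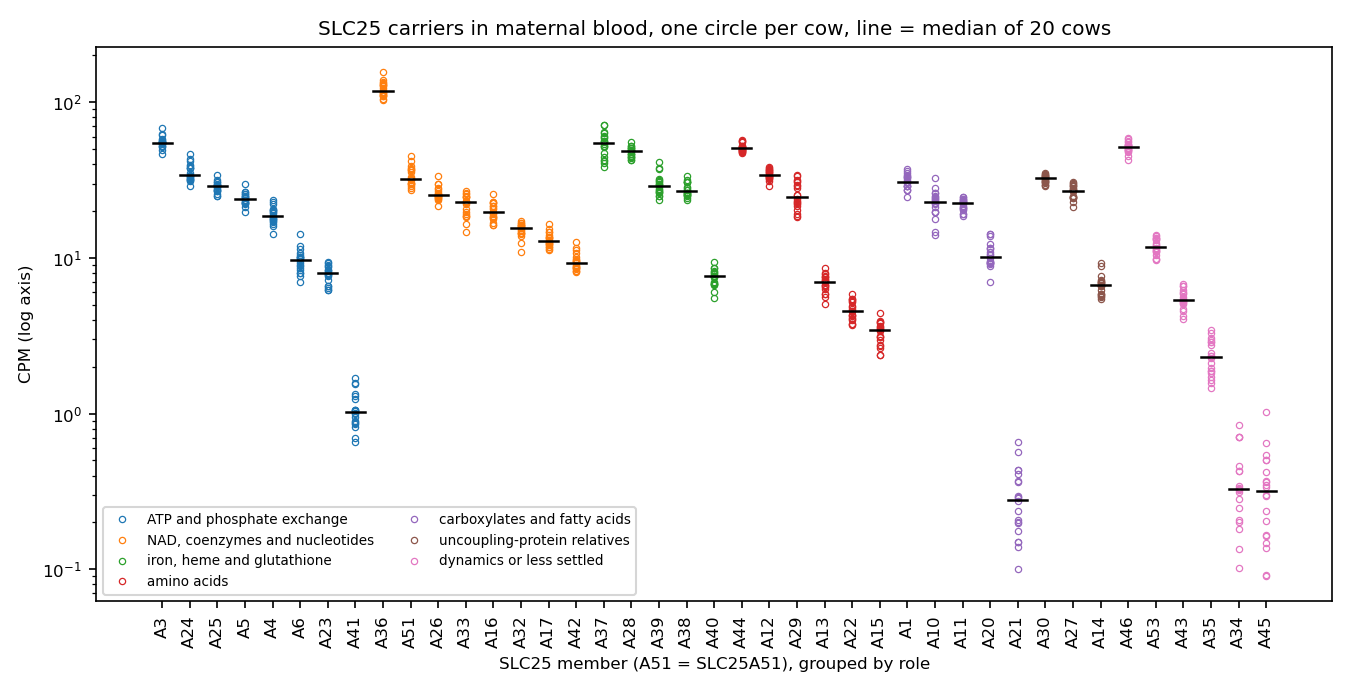
CPM of 41 of the 42 SLC25 members (log axis, not divided by transcript length), one circle per cow and a line at the median of 20 cows, colored by role; the count of 0 of SLC25A34 in the cow of the 36 kg calf is not drawn. SLC25A36 lies above all other members in every cow, and SLC25A21, SLC25A34 and SLC25A45 have medians below 1 CPM.

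SLC25A51 stood in the upper part of this order. Its CPM was between 27.2, for the 35 kg calf, and 44.8, for the 56 kg calf, with a median of 32.2 over 20 cows and with 742 to 1501 counts per cow. By median reads it was number 10 of the 42 members, next to SLC25A30 (median 32.4 CPM) and SLC25A1, the citrate carrier (median 30.6 CPM), and the ranges of all 3 overlapped. In the RefSeq name table the span of SLC25A51 overlaps that of DCAF10, a substrate receptor of a ubiquitin ligase. The strand setting of the counting is not given in the sources used here, so reads in a shared stretch could have been counted for either gene or neither. The same holds for SLC25A26 with LRIG1, SLC25A35 with RANGRF and SLC25A37 with LOC523756.

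Most carriers varied little between cows. The SD of log2 CPM over 20 cows had a median of 0.18 over the 42 members, against 0.22 over the 16269 genes that passed the filter in 20 cows. The members had more reads, with a median level of 21.0 CPM against 13.7 CPM. Genes of like level were not compared. The steadiest were SLC25A44 (SD 0.082), SLC25A30, a relative of the uncoupling proteins (0.083), and SLC25A12, an aspartate-glutamate carrier of the malate-aspartate shuttle (0.10). SLC25A44 stayed between 47.4 and 57.0 CPM in all 20 cows. The largest SD belonged to SLC25A34 (0.90), SLC25A45 (0.75) and SLC25A21 (0.58), for which counting alone was estimated to give 0.64, 0.50 and 0.50 in log2 units. This estimate leaves out the prior count of 2 used for log2 CPM, so at such low counts it is not directly comparable with the SD. For SLC25A34 it also includes the count of 0, which raises it. Among members with a median over 10 CPM, the SD was largest in SLC25A10, the dicarboxylate carrier (0.29), which had 14.1 to 32.6 CPM, and in SLC25A29, a carrier of basic amino acids (0.29), which had 18.2 to 34.2 CPM; this last pair was chosen after its values were seen. SLC25A51 had an SD of 0.20, number 18 of 42, where counting alone gives 0.044, and 44.6% of all genes that passed the filter had a smaller SD.

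Some members varied together across the cows and others in opposite ways. Over the 861 pairs of members the median Spearman correlation of log2 CPM across 20 cows was -0.012, with 41 pairs above 0.5 and 42 pairs below -0.5. The members share the cows, the depth and the scaling, so these values are descriptions. The closest pair was SLC25A16, a carrier linked to coenzyme A, with SLC25A24, the calcium-regulated carrier of ATP-Mg and phosphate (Spearman 0.80, Pearson 0.84). SLC25A23, a relative of SLC25A24, and SLC25A30 followed (0.79 and 0.71). The most opposed pairs were SLC25A10 with SLC25A51 (-0.77 and -0.80) and SLC25A33, a second carrier of pyrimidine nucleotides, with SLC25A36 (-0.77 and -0.77).

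**Figure D2:**
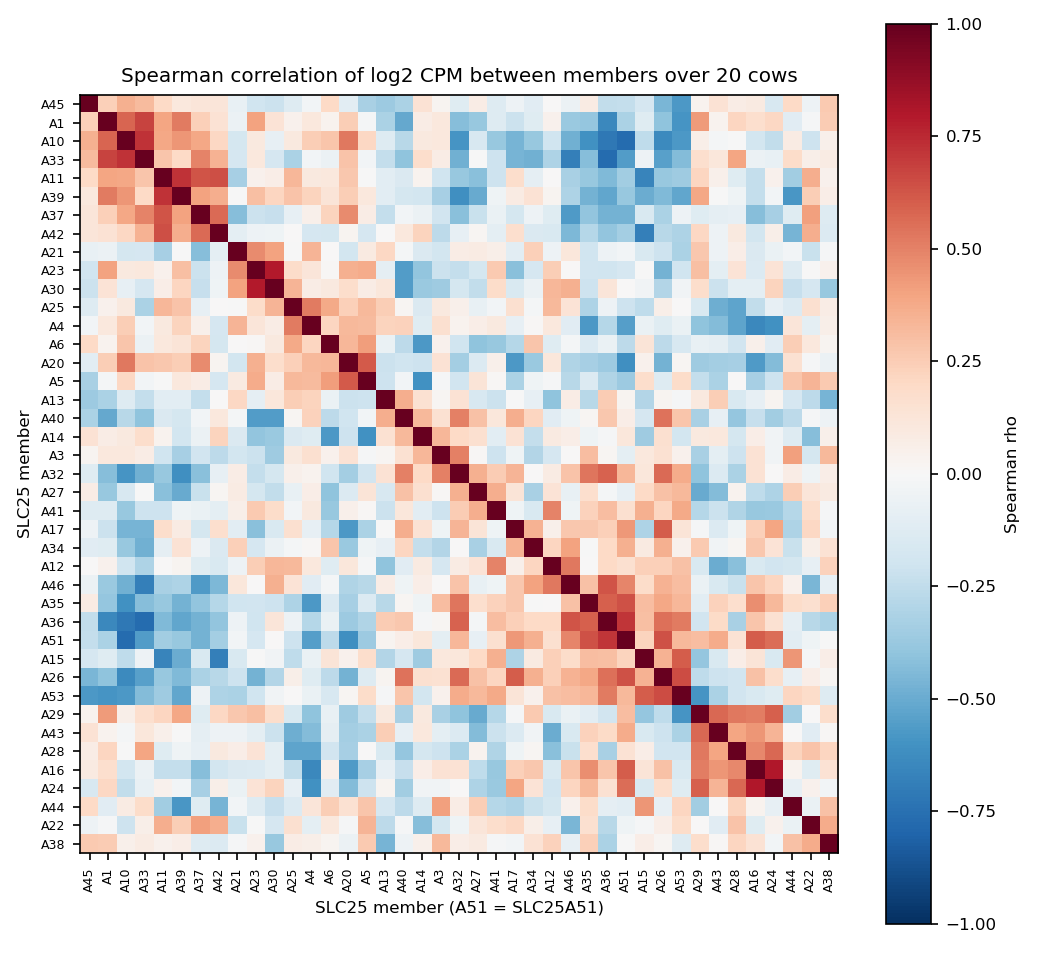
Spearman correlation of log2 CPM over 20 cows between each pair of 41 of the 42 members, ordered by average linkage; red is positive and blue negative. SLC25A51 lies beside SLC25A36 and opposite a block that holds SLC25A10 and SLC25A33.

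Within the family, the pattern of SLC25A51 over the 20 cows was most like that of SLC25A36 (Spearman 0.72), followed by SLC25A26, which carries S-adenosylmethionine, and SLC25A35 (0.64 each), SLC25A16 (0.60) and SLC25A24 (0.56). Among the least alike were SLC25A10 (-0.77) and SLC25A20, the carnitine-acylcarnitine carrier of fatty acid oxidation (-0.61). Over all genes that passed the filter the 5 closest included STRN (Spearman 0.95), STIM2 (0.92), SLMAP (0.90) and TRERF1 (0.87), none of them a mitochondrial carrier. DCAF10, the gene with the overlapping span, had 12.5 to 16.7 CPM and a Spearman correlation of 0.71 with SLC25A51.

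The carriers were related to calf BW by a slope fitted to the counts of 19 cows, leaving out that of the 72.5 kg calf, with edgeR's quasi-likelihood test over 16206 genes. SLC25A51 had the smallest p of the 42 members and was number 12 of all genes. It was higher with heavier calves, by 0.0185 per kg on the log2 scale (standard error 0.0038), which is 1.40-fold from 30 to 56 kg with a 95% confidence interval of 1.21 to 1.61. In the 10 cows of calves up to 43 kg it had 27.2 to 32.3 CPM (median 30.1), and in the 10 cows of calves from 45 kg on it had 32.1 to 44.8 CPM (median 37.0), a split at the middle of the BW order that was chosen after the values were seen. The ranges overlapped narrowly, since the cow of the 50 kg calf, at 32.1 CPM, lay just below those of the 38 kg and 41.5 kg calves. The cow of the 72.5 kg calf had 36.5 CPM, within the range of the other cows with calves from 45 kg on. The unadjusted p was 9.18e-05 and the FDR over all genes 0.0976 with edgeR, which does not pass 0.05, whereas DESeq2, the test that the study used, gave an FDR of 0.00743.

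SLC25A16 had 16.3 to 25.8 CPM, from the cow of the 30 kg calf to that of the 56 kg calf. Its slope was 0.0169 per kg (standard error 0.0038), which is 1.36-fold from 30 to 56 kg (95% confidence interval 1.17 to 1.56). By edgeR its FDR was 0.0976 and by DESeq2 0.0145. The cow of the 37 kg calf, at 22.9 CPM, was above every other cow with a calf up to 43 kg and within the range of the heavier calves. SLC25A24 had 28.9 to 46.7 CPM, with the same cows at either end. Its slope was 0.0158 per kg (standard error 0.0038), or 1.33-fold (1.16 to 1.53), and its FDR was 0.109 by edgeR and 0.0206 by DESeq2. Among the heavier calves, those of 49.5 kg and 55 kg had recipients with low values, at 31.7 and 33.5 CPM. The intervals of SLC25A51, SLC25A16 and SLC25A24 overlapped widely, and a difference between their slopes was not tested.

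**Figure D3:**
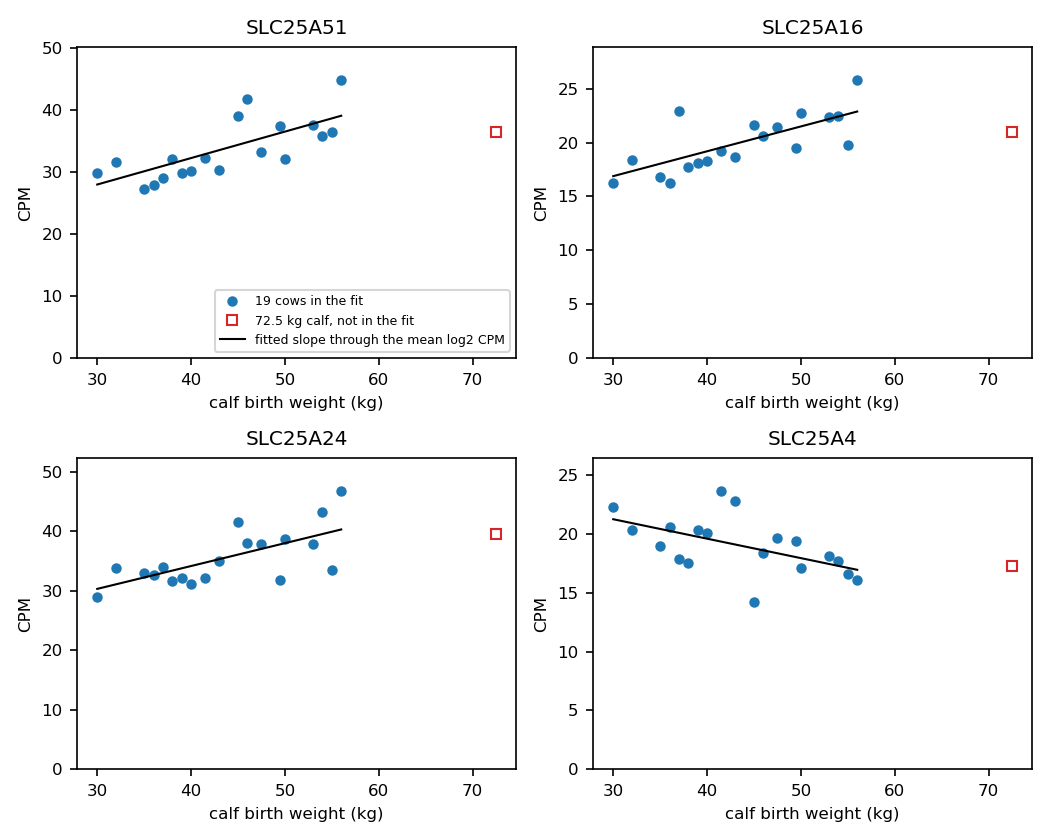
CPM against calf BW (kg) for SLC25A51, SLC25A16, SLC25A24 and SLC25A4, with filled circles for the 19 cows of the fit, an open square for the cow of the 72.5 kg calf and a line for the fitted slope. The first 3 have positive slopes and their highest value for the 56 kg calf, whereas SLC25A4 has 22.3 CPM for the 30 kg calf and 16.1 CPM for the 56 kg calf.

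With edgeR's quasi-likelihood test, 0 of the 42 members had an FDR below 0.05, as for all genes (0%), and 2 had an FDR below 0.1, against 0.315% of all genes; both were higher with BW, as 0.16% of all genes were. At an unadjusted p below 0.05 there were 7 members, a share of 16.7% that was near the 13.9% of all genes tested. Of these, 6 were higher with BW (6.78% of all genes were) and 1 was lower (7.08% of all genes were). With DESeq2, 3 members had an FDR below 0.05, SLC25A51, SLC25A16 and SLC25A24, against 1.24% of all genes with a value, and all 3 were higher with BW (0.693% of all genes). By limma with voom there were 0 members and 0 genes. DESeq2 on edgeR's gene set called the same 3 members (1.15% of all genes), DESeq2 on all 20 cows called 2, SLC25A51 and SLC25A24 (1.01%), and edgeR with any count as the filter called 2, SLC25A51 and SLC25A16 (0.637%). The median slope was -0.00087 per kg over the 42 members and -0.00072 over all genes, and 19 members had a positive and 23 a negative slope. By edgeR, the share below an unadjusted p of 0.05 in both directions together and the median slope of the family thus lay near those of all genes. By direction, the share of members was larger than that of all genes among the higher and smaller among the lower, which was not tested. The cow of the 56 kg calf weighed most on the DESeq2 calls. Without it DESeq2 called 0 members and 32 genes in all, against 189 with it, with an FDR of 0.0747 for SLC25A51, 0.0998 for SLC25A16 and 0.143 for SLC25A24, and the slope of SLC25A51 was 0.0163 with DESeq2 and 0.0160 with edgeR.

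The 7 members below an unadjusted p of 0.05 belonged to 3 of the 7 roles; the counts by role below stand against 6.78% of all genes higher and 7.08% lower. Among the 9 tested carriers of NAD, coenzymes and nucleotides, 3 were higher, namely SLC25A51, SLC25A16 and SLC25A36, whose slope was 0.0103 per kg (standard error 0.0039, edgeR FDR 0.248). With the erythroid or monocyte score as a covariate the slope of SLC25A36 was 0.0067 (p = 0.0808) or 0.0069 (p = 0.0667), both with edgeR and unadjusted. Among the 8 carriers of ATP and phosphate, SLC25A24 was higher and SLC25A4, the ADP/ATP carrier of muscle and heart, was lower. SLC25A4 had 14.2 to 23.6 CPM, and its slope was -0.0126 per kg (standard error 0.0048, edgeR FDR 0.252), or 0.798-fold from 30 to 56 kg. Of the other ADP/ATP carriers, SLC25A5 had a slope of -0.0076 (standard error 0.0038, FDR 0.387), or -0.0049 when the cow of the 56 kg calf was left out, and that of SLC25A6 lay between -0.015 and 0.015 (95% confidence interval); the 3 genes are near relatives whose reads may be shared. The other members with p below 0.05 were SLC25A35, without a settled substrate, with a slope of 0.0233 (standard error 0.010, FDR 0.303), and SLC25A46, with 0.0068 (standard error 0.0032, FDR 0.356). With the erythroid or monocyte score as a covariate both were also above an unadjusted p of 0.05 with edgeR. By limma with voom the unadjusted p was 0.0737 for SLC25A35 and 0.0520 for SLC25A46. With edgeR and IL5RA as a covariate it was 0.112 for SLC25A35. For SLC25A46 it was 0.0731 with edgeR on all 20 cows, 0.0515 with total count and 0.0511 with the T cell score as a covariate. DESeq2 gave an unadjusted p of 0.0320 for SLC25A35 and 0.0340 for SLC25A46.

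None of the 5 carriers of iron, heme and glutathione, the 6 of amino acids, the 5 of carboxylates and fatty acids or the 3 relatives of uncoupling proteins had a p below 0.05. After SLC25A4 and SLC25A5, the smallest p-values among negative slopes belonged to SLC25A20 (-0.0128, standard error 0.0064, FDR 0.387) and SLC25A10 (-0.0142, standard error 0.0076, FDR 0.425). With IL5RA as a covariate these slopes were -0.0062 and -0.0075, and that of SLC25A10 was -0.0063 with the monocyte score and -0.0090 without the cow of the 56 kg calf. For the 3 steadiest members the intervals were narrow. The slope of SLC25A44 lay between -0.0056 and 0.0062 per kg and that of SLC25A30 between -0.0059 and 0.0060 (95% confidence intervals). Members in lists of the study included SLC25A42 and SLC25A53 among its gestational genes, a list made with these and other cows. Its coexpressed genes, chosen on these 20 cows alone, included SLC25A51, SLC25A24 and SLC25A29 in the turquoise module. SLC25A42, a carrier of coenzyme A, had a slope of -0.0085 (edgeR FDR 0.468), SLC25A53 of -0.00022 (FDR 0.992) and SLC25A29 of 0.0120 (FDR 0.507). With all 20 cows the slope was -0.00028 for SLC25A42 and 0.0057 for SLC25A29, without the cow of the 30 kg calf that of SLC25A42 was -0.0034, and with IL5RA as a covariate that of SLC25A29 was -0.0031.

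**Figure D4:**
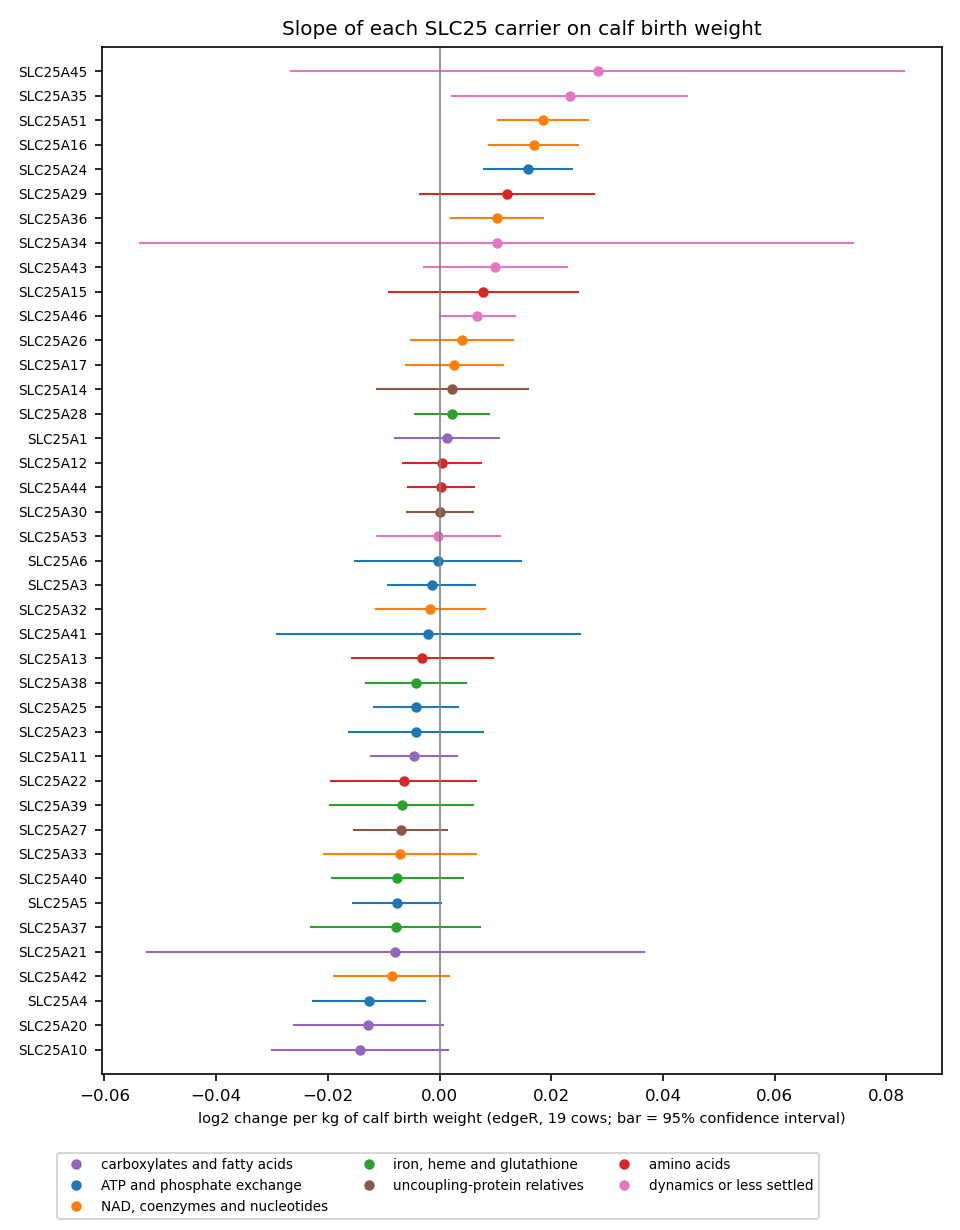
Slope of 41 of the 42 members on calf BW (log2 change per kg, edgeR, 19 cows), with bars for the 95% confidence interval and colors for the role. The intervals of 7 members do not reach 0, among them SLC25A51 at 0.0185 and SLC25A4 at -0.0126, and the widest intervals belong to members of few reads.

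Over all 20 cows, with ranks or values of log2 CPM in place of a count model, SLC25A51 followed BW with a Pearson correlation of 0.67 (permutation p = 0.00112, or 0.187 after adjustment over 16269 genes) and a Spearman correlation of 0.77 (permutation p = 0.00019, adjusted 0.0813). Without the 2 cows farthest from the median BW, those of the 72.5 kg and 30 kg calves, the Pearson correlation was 0.76. For SLC25A16 the correlations were 0.64 (permutation p = 0.00201, adjusted 0.207) and 0.71 (permutation p = 0.00059, adjusted 0.0896), and 0.71 without the same cows. For SLC25A24 they were 0.66 (permutation p = 0.00165, adjusted 0.200) and 0.65 (permutation p = 0.00228, adjusted 0.126), and 0.65 without them. An unadjusted permutation p below 0.05 was found for 10 members by Pearson, against 13.4% of all genes, and for 10 by Spearman, against 15.2% of all genes. No gene had an adjusted p below 0.05 in either permutation test.

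The carriers were then set against the markers of blood cells, with a score per cow for each list (the mean z-score of its genes) as the variable in edgeR over 16269 genes and 20 cows. The monocyte score was followed by 6 members at an FDR below 0.05, against 6.93% of all genes. SLC25A10 (slope 0.28 per unit of score on the log2 scale, standard error 0.047, FDR 0.000898), SLC25A37 (0.22, standard error 0.046, FDR 0.00501) and SLC25A33 (0.19, FDR 0.0138) were among the 4 that were higher with the score (3.59% of all genes were). SLC25A51 (-0.16, standard error 0.036, FDR 0.0104) and SLC25A36 (-0.11, standard error 0.031, FDR 0.0259) were lower (3.34% of all genes were). With the neutrophil score 3 members were called, against 2.15% of all genes. These were SLC25A33 (0.32, standard error 0.041, FDR 0.000179) and SLC25A37 (0.25, standard error 0.066, FDR 0.0497), which were higher (1.8% of all genes), and SLC25A36 (-0.16, standard error 0.038, FDR 0.0310), which was lower (0.35% of all genes). Without the cow of the 72.5 kg calf SLC25A33 alone was called (FDR 0.000482), against 1.48% of all genes, and the FDR was 0.0534 for SLC25A36 and 0.0699 for SLC25A37. With the level of IL5RA there were 4, against 5.94% of all genes, and all 4 were higher (4.97% of all genes), namely SLC25A29 (FDR 0.00154), SLC25A51 (slope 0.15, standard error 0.029, FDR 0.00207), SLC25A24 (FDR 0.00331) and SLC25A16 (FDR 0.0212).

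None of the 42 members passed with the other scores, which called 1.46% of all genes for T cells, 2.56% for B cells, 0.516% for natural killer and cytotoxic cells, 0.461% for platelets, 0.0738% for erythroid cells and 0.0307% for neutrophil granules. The smallest FDR was 0.114 for SLC25A3 with T cells, 0.142 for SLC25A44 with B cells, 0.303 for SLC25A38, the glycine carrier of heme synthesis, with natural killer and cytotoxic cells, 0.261 for SLC25A33, SLC25A36 and SLC25A51 alike with erythroid cells and 0.127 for SLC25A26 and SLC25A36 with neutrophil granules. The slope of SLC25A51 on the erythroid score was -0.17 (standard error 0.047). SLC25A37, known for its part in red cell precursors, was thus called with the monocyte score and not with the erythroid one, and its call with the neutrophil score was lost in 19 cows and by limma with voom (FDR 0.0544); a difference between the scores was not tested.

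The 3 members with the smallest p on BW were thus among the 4 that moved with IL5RA, a receptor subunit of eosinophils and some B cells. The other, SLC25A29, had the smallest p with IL5RA and an FDR of 0.507 on BW. How many of all genes related to BW were also called with IL5RA was not counted, so this overlap has no background share. IL5RA had 20.2 to 199.9 CPM (median 58.8) and was highest for the 56 kg calf, as SLC25A51, SLC25A16 and SLC25A24 were. It changed by 0.0531 per kg of BW on the log2 scale (standard error 0.019, unadjusted p = 0.0102, FDR 0.216 with edgeR). With its level as a covariate in edgeR, 7.71% of all genes had an unadjusted p below 0.05 on BW, against 13.9% without it. At that threshold 5 members were higher (3.62% of all genes) and 0 lower (4.09%). The slope of SLC25A51 on BW was then 0.0127 (standard error 0.0037, unadjusted p = 0.00284, FDR 0.399 with edgeR). That of SLC25A16 was 0.0127 (FDR 0.480), that of SLC25A24 0.0102 (FDR 0.511) and that of SLC25A4 -0.0079 (FDR 0.752). With the monocyte score as a covariate the slope of SLC25A51 was 0.0145 (standard error 0.0029, FDR 0.0852). It was 0.0149 (FDR 0.201) with the erythroid score and between 0.0179 and 0.0185 with the neutrophil, T cell or platelet score. None of the 5 monocyte markers had an unadjusted p below 0.05 on BW, and their summed level was between 487 and 1088 CPM, with VCAN as the most abundant. With edgeR, other lists held genes below that p, against 6.78% of all genes higher and 7.08% lower. Of 6 neutrophil granule genes 1 was higher and 2 lower (median slope -0.0251), and of 9 erythroid genes 1 was lower (-0.0347). The neutrophil, platelet and natural killer and cytotoxic lists had 1 higher gene each, and the T and B cell lists 0. The slope of SLC25A51 on the neutrophil granule score was -0.21 (standard error 0.065, FDR 0.171).

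**Figure D5:**
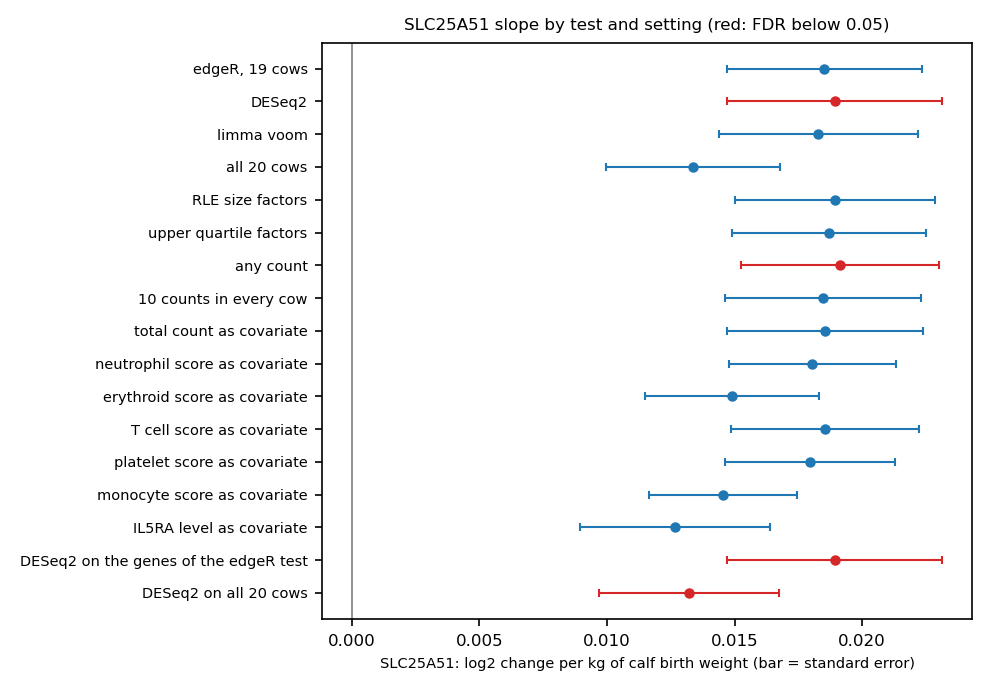
Slope of SLC25A51 on calf BW (log2 change per kg) by test and setting, with bars for the standard error; red marks an FDR below 0.05 over all genes. All slopes are positive, from 0.0127 with IL5RA as a covariate to 0.0191 when genes with any count are kept.

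Other genes that supply or use NAD were taken from a list of 26, of which 20 were tested. With edgeR, 1 was higher at an unadjusted p below 0.05 and 0 were lower, against 6.78% and 7.08% of all genes, and 0 had an FDR below 0.05 with edgeR or DESeq2. That gene was NADSYN1, which makes NAD from its acid precursor, with 118 to 241 CPM and a slope of 0.0161 per kg (standard error 0.0056, edgeR FDR 0.209). KYNU, an enzyme of the route from tryptophan, had the next smallest p, with a slope of -0.0133 (standard error 0.0065, FDR 0.371). The genes with the most reads were IDO1, the first enzyme of that route, with 234 to 737 CPM and a slope of 0.0157 (standard error 0.011, FDR 0.571), and NADK, which phosphorylates NAD, with 257 to 391 CPM and a slope of 0.0085 (standard error 0.0045, FDR 0.426). The slopes of 7 genes were positive and of 13 negative, with a median of -0.0023 per kg.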

How the data were processed

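Whole blood in Tempus tubes from 20 cows gave 1 library per cow. Reads had been trimmed (Trimmomatic), mapped to the bovine genome by STAR 2.7.0b and assigned to genes by featureCounts of Subread 2.0.3, and the authors deposited these raw counts under Entrez identifiers. The labels name a SMARTer Stranded kit and the study's methods a Truseq-stranded kit; strand setting and treatment of multi-mapping reads are not given in the sources used here. All 37063 identifiers were found in a RefSeq name table of ARS-UCD2.0, which differs from the authors' build, so no coordinates are given. Transcript lengths and sequences were not used here; the planned order by CPM per kb was replaced by the order of reads.

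edgeR 4.0.16 (R 4.3.3) with TMM gave slopes on BW in 19 cows; genes had to reach 10 counts in 5 or more of them, and intervals are 95%. The p-values were adjusted over all genes by the Benjamini-Hochberg method. The labels do not say more of the cows than BW, and no batch is named. Any 2 libraries differed beyond sampling noise (lowest chi-square per degree of freedom 12.2, 190 pairs). Log2 CPM used a prior count of 2, and permutation tests used 100000 two-sided resamples (numpy 2.4.6). DESeq2 1.42.0, voom of limma 3.58.1 and other filters, size factors, covariates and samples served as alternatives. Those added after seeing the data were DESeq2 without each cow, on all cows and on edgeR's gene set, and the monocyte and IL5RA covariates. The tests were checked on simulated data. For the count tests the simulated slopes were larger than that of SLC25A51, so effects of its size were not checked.

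The members and lists were chosen with earlier results of these data known. Genes named were SLC25A51, the 5 members of most and 3 of fewest reads, the 3 of largest and 3 of smallest SD, the 5 of smallest p on BW in each direction, the 2 of smallest p on each marker score, members in the study's lists or below the filter, the 5 members and 5 genes most like SLC25A51, and in each pathway list the 2 of smallest p and 2 of most reads. SLC25A46 among the calls, the genes with overlapping spans and the pairs of members were named after their values were seen. Of the genes this rule takes, 1 member and 1 other gene are not reported here by name or drawn; the counts include them.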

Additional observations from a re-analysis of the deposited data

How the results depend on the processing

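The slope of SLC25A51 was positive in every alternative run, and the other members with an unadjusted p below 0.05 had the same direction in each as in the edgeR test. Its FDR passed 0.05 with DESeq2 (slope 0.0189), with DESeq2 on edgeR's gene set (0.0189), with DESeq2 on all 20 cows (0.0132) and in edgeR with any count as the filter (0.0191). The members called were then 3, 3, 2 and 2, against 1.24%, 1.15%, 1.01% and 0.637% of all genes. At an unadjusted p below 0.05, the members lower with BW were 4 with all 20 cows by edgeR (6.41% of all genes) or DESeq2 (5.13%), 4 with the neutrophil score as a covariate (7.95%), 3 with the T cell (7.76%) or platelet score (7.37%) and 0 with IL5RA (4.09%); the members higher were 3 with the erythroid (4.72%) or monocyte score (5.17%), where SLC25A35, SLC25A36 and SLC25A46 were not called. By limma with voom 4 members were higher at that threshold (6.38% of all genes), without SLC25A35 and SLC25A46. With IL5RA as a covariate in edgeR 5 were higher (3.62%). When the cow of the 56 kg calf was left out, 3 were higher with edgeR (4.41%) or DESeq2 (3.74%). The edgeR FDR was then 0.590 for SLC25A36, 0.599 for SLC25A35 and 0.648 for SLC25A46. On the neutrophil score 1 member, SLC25A33, was called in 19 cows. Without 1 cow at a time, edgeR called 0 to 1 members (1, SLC25A51, among 34 genes, when the cow of the 32 kg calf was left out), while DESeq2 called 0 to 3 among 32 to 428 genes. Unadjusted, 3 to 6 were higher with either test (4.41% to 7.83% of all genes with edgeR, 3.74% to 6.18% with DESeq2), and 1 to 3 (edgeR, 5.52% to 7.89%) or 1 to 5 (DESeq2, 4.1% to 5.55%) lower. The slope of SLC25A51 was then 0.0160 to 0.0202 with edgeR and 0.0163 to 0.0208 with DESeq2, the lowest without the cow of the 56 kg calf. DESeq2 called SLC25A51 and SLC25A16 in 18 of these 19 fits each and SLC25A24 in 16 (not without the cows of the 30, 54 and 56 kg calves). SLC25A29 had a slope of -0.0031 with IL5RA as a covariate, SLC25A36 of 0.0067 with the erythroid score, and SLC25A5 of -0.0049 when the cow of the 56 kg calf was left out. The slope of SLC25A53, near 0, was positive at 0.00021 with DESeq2 and on edgeR's gene set, 0.00019 with RLE size factors, 0.00044 with any count, 0.0035 with all 20 cows, 0.0034 with these by DESeq2 and 0.0040 with IL5RA, and -0.0018 to 0.0026 without 1 cow. SLC25A6, SLC25A30 and SLC25A44, also near 0, took either sign, between -0.0048 and 0.0057 for SLC25A6. The causes were not tested. The order by length was not run. No paired analysis was possible because the cows form 1 group.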

Other observations

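Carriers of the same family that bear other names were read from a separate list of 5, of which 4 were tested. UCP2, an uncoupling protein of white blood cells, had more reads than any SLC25A gene, with 352 to 681 CPM (median 494), and a slope on BW of 0.0145 per kg (standard error 0.0067, unadjusted p = 0.0427, FDR 0.342 with edgeR). MTCH1, an outer membrane protein, had 110 to 163 CPM and a slope of 0.0038 (standard error 0.0035, FDR 0.676). The study lists MTCH1 among the biomarker genes that it took from its gestational genes to predict BW. Its prediction used many genes together, which the slope of a single gene does not test. UCP3 had 0.271 to 5.21 CPM and changed by 0.0755 per kg (standard error 0.035, FDR 0.347). By edgeR 2 of the 4 were higher at an unadjusted p below 0.05, where 6.78% of all genes were, and 0 had an FDR below 0.05 with edgeR or DESeq2.

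Of 13 genes for the import of carriers into the inner membrane, all were tested, 2 had a positive slope, where 46.6% of all genes did, 11 had a negative one, and 1 was lower at an unadjusted p below 0.05, where 7.08% of all genes were. This was TIMM13, a small chaperone of the intermembrane space, with 20.2 to 29.2 CPM and changed by -0.0122 per kg of BW (standard error 0.0037; FDR 0.175 with edgeR and 0.0940 with DESeq2). TIMM29, a part of the carrier translocase, had a slope of -0.0077 (standard error 0.0057, edgeR FDR 0.586). The receptor genes TOMM22 and TOMM70 had the most reads, with medians of 42.7 and 30.5 CPM and slopes of -0.0037 and -0.0044 (FDR 0.628 and 0.596). Of 15 genes of other transport across mitochondrial membranes, SFXN5, a sideroflexin, was higher (slope 0.0521, standard error 0.016, FDR 0.175) and SFXN2 lower (-0.0126, standard error 0.0051, FDR 0.267) at an unadjusted p below 0.05 with edgeR, against 6.78% of all genes higher and 7.08% lower. CPT1A, the entry enzyme of fatty acid oxidation, and VDAC2, a pore of the outer membrane, had the most reads, with medians of 57.2 and 52.0 CPM and slopes of 0.00062 and -0.0062 (FDR 0.988 and 0.660).

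DCAF10, whose span overlaps that of SLC25A51 in the name table, had a slope on BW of 0.0093 per kg (standard error 0.0029, unadjusted p = 0.00429, FDR 0.181 with edgeR). SLC25A5 and SLC25A43, both on the X chromosome, had a Spearman correlation of -0.32 over the 20 cows.

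Across the 42 members the slope on BW had a Spearman correlation of 0.089 with the span of the gene in the name table and 0.055 with the mean CPM, against 0.056 and 0.068 across all 16206 genes. Genes are not independent replicates, so these are descriptions.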
